A study of Homo sapiens with 8 samples.

Results

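Among the eCLIP peaks of IGF2BP1 listed for H1299 cells treated with AVJ16, 3044 lay in a 3’UTR and had no peak of the DMSO list within 50 nt on the same strand. They were chosen from the 16594 AVJ16 peaks that overlap a 3’UTR and no coding sequence (CDS), of 22123 AVJ16 peaks in all, and are called AVJ16-only peaks below. This is 18.3% of the AVJ16 3’UTR peaks, and the other 13550 are called shared. The same rule turned around gave 3809 DMSO-only peaks among the 16653 DMSO 3’UTR peaks, or 22.9%. Outside the 3’UTR, 2019 of 5529 AVJ16 peaks (36.5%) had no DMSO peak within 50 nt. Because the presence of a peak in each list chose the members, these counts and the enrichments of the members are descriptions, with no test.

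H1299 is a line of human non-small cell lung carcinoma cells, here of wild-type genotype. One arm received AVJ16, an inhibitor of IGF2BP1, at 1.5 µM, and the other received its solvent DMSO at 0.01%, for 24 h in both arms before UV crosslinking at 254 nm and 400 mJ/cm2. Each arm gave 2 immunoprecipitated (IP) libraries and 2 size-matched input (SMInput) libraries, 8 in all, from cells of the same thaw that were prepared in batches. The deposited lists combine the replicates of an arm, so depth per library, the spread between replicates and any batch effect cannot be read from them, and treatment and list cannot be told apart. Each peak has a log2 fold enrichment of IP over SMInput and a −log10 p, and a site under a log2 fold enrichment of 3 or a −log10 p of 3 is missing from a list whatever its binding. Peak lists hold no expression values, so the cell type could not be checked against markers. AVJ16-only therefore means listed with AVJ16 and not listed nearby with DMSO, not a measured change.

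IGF2BP1 is an RNA-binding protein of fetal tissues that is made again in many tumours. It binds mRNAs through KH and RRM domains, mostly in the 3’UTR, and is known for shielding bound mRNAs from decay and from microRNAs. A 3’UTR often holds many binding sites for many proteins, and eCLIP lists the stretches where crosslinked reads pile up above the input.

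The sequences of 7 AVJ16-only peaks show what these sites look like. The first 2 are the most enriched of all, the next 3 have the highest enrichments in genes with no DMSO peak, and the last pair the lowest and the highest GC content. Each is the middle of the peak, of at most 30 nt, read from hg38 on the transcript strand, with capitals for any match to the motif GGAC, the motif ACAC, the motif UCCAG, the motif CCNGUU (N is any base) or the motif UUUCCGAA.
TXNDC5: ccucuggaagauaccuucacggccgcugcu
CGGBP1: aagaauuugcacaugaauguuaauggaaaa
CYP2U1: uuuccucaugcuggcucuACACuuaauccu
HBEGF: cuacuccaugcaggggucagugcagcagag
SLC22A5: ccaccuuccucuagGGACACuggggcuacc
SEPTIN10: uaaauaaaacugacauuuacucuug
CYB5R3: ucgccugucacccccacucccgccucaggg
In these stretches, 2 of the 7 hold a capitalised match. All of them are exonic and lie in the 3’UTR of the gene named.

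TXNDC5 (ENSG00000239264), a protein disulfide isomerase of the endoplasmic reticulum, held the most enriched AVJ16-only peak, at chr6:7882598-7882630 on the minus strand. Its log2 fold enrichment was 5.67 and its −log10 p was 48.0. It lay 530 nt after the stop codon in a 3’UTR of 1627 nt, 68 nt from the nearest DMSO peak, and its position also falls in the 3’UTR of another annotated gene. The TXNDC5 3’UTR held 28 AVJ16 peaks, 4 of them AVJ16-only, and 19 DMSO peaks, so this site stood among many bound in both arms. CGGBP1, which binds CGG repeats, followed with 5.64 at chr3:88052489-88052528 on the minus strand, 61 nt from a DMSO peak.

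Further genes among the 12 with the highest enrichment ranged from 5.41 to 5.23. CTDSPL, a phosphatase related to those of the RNA polymerase II tail, had 5.41, and TIMP3, an inhibitor of matrix metalloproteinases, had 5.40. RCOR1, the CoREST corepressor, had 5.39 and CYP2U1, a cytochrome P450, had 5.38. CBL, a ubiquitin ligase for receptor tyrosine kinases, and PDK3, which phosphorylates pyruvate dehydrogenase, both had 5.34. The PDK3 site was placed on a transcript other than the canonical one. DAG1, the precursor of dystroglycan, and the glycosidase MYORG both had 5.24, and the adhesion protein NECTIN1 had 5.23. In 6 of these 12 genes (TXNDC5, CGGBP1, RCOR1, CBL, TIMP3 and CTDSPL) a DMSO peak lay between 59 and 129 nt away. In PDK3 and DAG1 the nearest was 139 and 140 nt away, and in NECTIN1 and MYORG 717 and 2743 nt. CYP2U1 had no DMSO peak anywhere in the gene.

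High values of this kind were rare. The median log2 fold enrichment of the AVJ16-only peaks was 3.37 (95% interval 3.35 to 3.39), with quartiles of 3.17 and 3.70, against 3.74 for shared peaks. Their median −log10 p was 7.22, against 15.8. At 4 or more there were 389 AVJ16-only peaks, at 4.5 or more 102, and at 5 or more 22. The DMSO-only peaks had nearly the same medians, 3.39 and 7.23. Of the AVJ16-only peaks, 1181 had a log2 fold enrichment of 3.5 or more, and 763 had a −log10 p under 5. At the limit of the rule, the 146 shared peaks with a gap of 41 to 50 nt to a DMSO peak had a median log2 fold enrichment of 3.47, and the 133 AVJ16-only peaks with a gap of 51 to 60 nt had 3.45.

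The share of AVJ16 3’UTR peaks that were AVJ16-only fell as enrichment rose. From a log2 fold enrichment of 3 to 3.25 it was 33.7%, from 3.5 to 4 it was 15.6%, and at 5 or more it was 3.17%, or 22 of 693 peaks. The DMSO-only share fell from 43.3% to 1.39% (12 of 864) over the same ranges. By −log10 p, the AVJ16-only share was 53.3% from 3 to 5 and 1.87% at 50 or more. DMSO-only shares were above the AVJ16-only shares in every enrichment range except the highest.

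**Figure D1:**
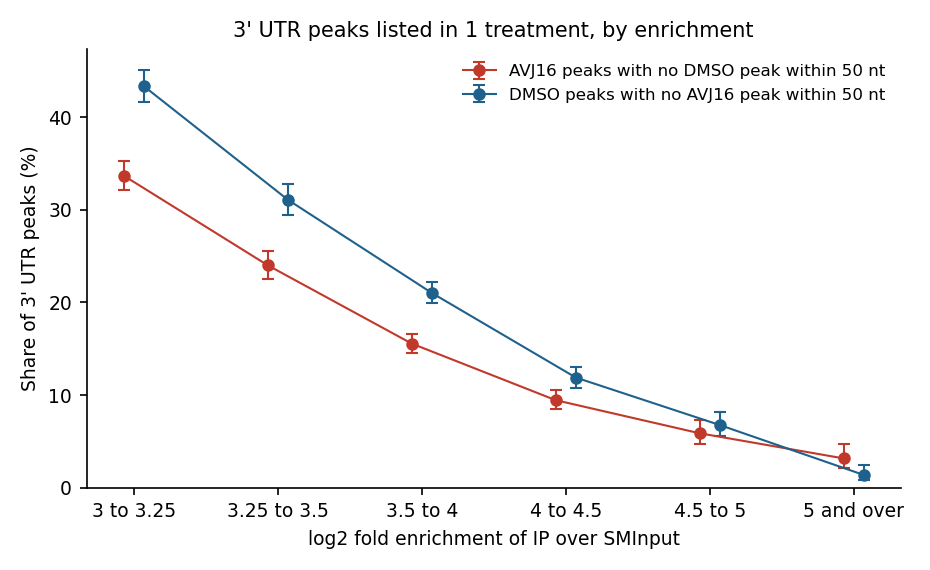
Share of 3’UTR peaks with no peak of the other treatment within 50 nt (vertical axis, %) in ranges of log2 fold enrichment of IP over SMInput (horizontal axis), red for AVJ16 peaks and blue for DMSO peaks, with 95% Wilson intervals. Both fall with enrichment, from 33.7% to 3.17% with AVJ16 and from 43.3% to 1.39% with DMSO.

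GC content and motifs were not used by the rule. Position was, in that peaks overlapping a CDS were left out of every group, so the position difference is also given with them kept. Counts of neighbouring peaks, and of genes with no DMSO peak, are shaped by it and are given further on as descriptions. Each list is 1 value per treatment, so no test of a difference was made. Intervals are 95% Wilson intervals for shares and order-statistic intervals for medians, which cover counting error only, and peaks of 1 3’UTR are not independent.

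AVJ16-only peaks were richer in G and C than shared and DMSO-only peaks. In the 75 nt around the peak, mean GC content was 44.1% (SD 9.91, n = 3044), against 42.0% (SD 9.43, n = 13550) for shared peaks and 40.4% (SD 10.1, n = 3809) for DMSO-only peaks. The medians, which move in steps of 1 base, were 42.7%, 41.3% and 38.7%. The spread within each group was several times the differences between them, so the groups overlap widely. Most of the difference lay in G, at 20.8% of bases in AVJ16-only, 18.8% in shared and 18.3% in DMSO-only windows, while C was 23.4%, 23.2% and 22.1%. Over 75-nt windows tiled along the 3’UTRs of all genes with an AVJ16 3’UTR peak, G made up 20.6% and C 20.2%. Relative to that background, shared and AVJ16-only peaks alike held more C, and the G content of AVJ16-only peaks lay near it. DMSO 3’UTR peaks with an AVJ16 peak within 50 nt had a mean GC content of 41.4% (SD 9.51, n = 12844), slightly below the 42.0% of shared AVJ16 peaks. A small difference in the same direction was thus present between the lists at shared sites too.

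By range of GC content, the AVJ16-only share rose from 14.4% (12.6% to 16.4%) under 30% GC through 15.1%, 19.3% and 22.4% to 26.5% (23.8% to 29.4%) at 60% GC and over. The DMSO-only share took another course, from 28.8% under 30% GC to 19.7% between 40% and 50%, and 24.9% at 60% and over. A rise with GC was present among strongly enriched peaks too: at a log2 fold enrichment of 4 or more, the AVJ16-only share was 5.39% under 40% GC, 8.25% from 40% to 50% and 11.99% above. From 3 to 3.25 it was 29.4%, 34.6% and 39.8%. From 3.5 to 4 it was 12.3%, 18.4% and 17.1%, where the upper ranges did not differ beyond their intervals. In the CDS the AVJ16-only share was 35.6% under 40% GC and 34.6% at 60% and over, with no rise. The DMSO-only share there was 29.1% under 40% GC, 27.7% and 30.5% in the next ranges, and 42.3% (37.9% to 46.9%) at 60% and over. The CDS was compared after the 3’UTR values were seen.

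**Figure D2:**
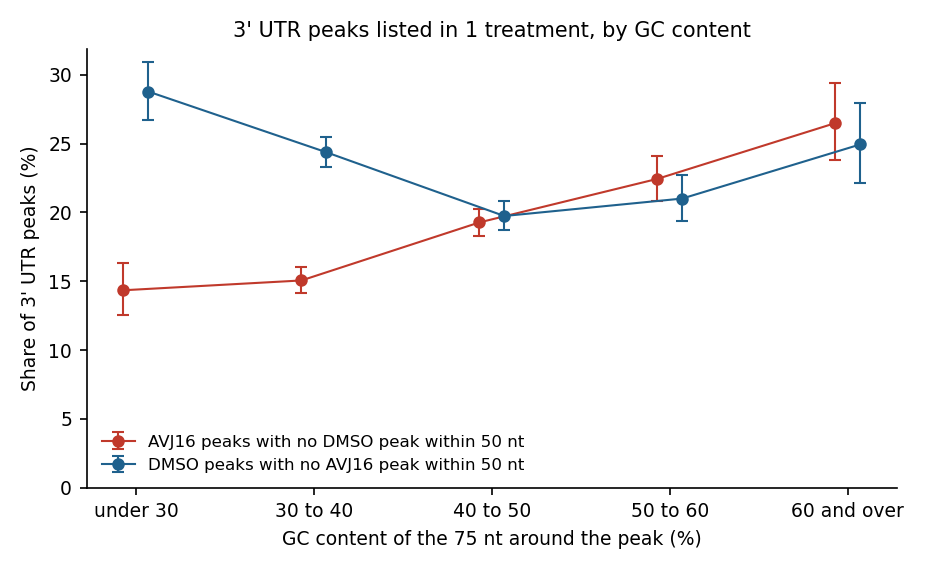
Share of 3’UTR peaks with no peak of the other treatment within 50 nt (vertical axis, %) by GC content of the 75 nt around the peak (horizontal axis), red for AVJ16 and blue for DMSO peaks, with 95% Wilson intervals. The red points rise from 14.4% to 26.5%, and the blue points fall from 28.8% to 19.7% before rising to 24.9%.

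The GC content of the host 3’UTR and that of the site relative to it both differed. The 3’UTRs around AVJ16-only peaks had a median GC content of 41.3%, against 39.9% for shared and 38.8% for DMSO-only peaks. The window minus its own 3’UTR had a median of 1.86 percentage points in AVJ16-only peaks, 0.80 in shared and −0.18 in DMSO-only peaks. Within the 1216 3’UTRs that hold both kinds, AVJ16-only peaks exceeded shared peaks by a median of 1.33 percentage points (0.67 to 1.87), with AVJ16-only peaks higher in 689 genes and lower in 511. Against DMSO-only peaks of the same 3’UTR the median difference was 2.22 points (1.33 to 2.67) over 812 genes, higher in 468 and lower in 323. These comparisons within a 3’UTR were added after seeing the data.

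The extremes show the range. SEPTIN10, a septin of the cytoskeleton, held the AVJ16-only peak of the lowest GC content, 18.7%, at chr2:109543008-109543032 on the minus strand, with a log2 fold enrichment of 3.09. AEBP2, a partner of the PRC2 complex, was 1 of 3 genes that followed with 20%, the most enriched of them, at chr12:19518949-19519011 on the plus strand, and an enrichment of 4.29. CYB5R3, the cytochrome b5 reductase, held the highest, 74.7%, at chr22:42619297-42619382 on the minus strand, with 3.38. PTPRF, a receptor tyrosine phosphatase, had 73.3% at chr1:43622532-43622597 on the plus strand, with 3.33. Enrichment did not follow GC content in these 4 peaks.

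Short motifs differed little between AVJ16-only and shared peaks. Motifs were sought on the transcript strand only, in the 75-nt windows. ACAC was present in 23.7% of AVJ16-only and 23.9% of shared windows, against 18.8% of the tiled windows, and UCCAG in 10.4%, 10.7% and 9.36%. GGAC, which contains the core of the m6A consensus, was present in 17.3% of AVJ16-only windows (16.0% to 18.7%), 15.6% of shared and 14.7% of tiled windows. Within ranges of GC content, a split added after seeing the data, GGAC was in 9.09% of AVJ16-only and 9.89% of shared windows under 40% GC, 16.9% and 16.4% from 40% to 50%, and 28.3% and 26.6% above. CCNGUU, with N any base, was less frequent in AVJ16-only windows, 6.34% (5.53% to 7.26%) against 7.66% (7.22% to 8.12%), and 5.65% of tiled windows held it. The gap was widest in windows of 40% to 50% GC, at 5.95% against 8.39%. UUUCCGAA, counted as an exact sequence, was present in 1 AVJ16-only window of 3044 and in 2 of 13550 shared windows. The paper gives it as the most common motif of a HOMER search in both arms. Counts of exact matches are a different measure and cannot be set against that result.

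Motifs of A and U alone were less frequent in AVJ16-only peaks than in the tiled windows. AUUUA, the AU-rich element pentamer, was in 11.04% of AVJ16-only, 11.9% of shared and 15.0% of tiled windows. UUUUU was in 17.2%, 18.9% and 24.9%, and the polyadenylation signal AAUAAA in 3.91%, 4.65% and 6.49%. UGUANAUA, bound by Pumilio proteins, was in 1.41%, 1.54% and 1.62%. The interval of its ratio to tiled windows, 0.871 (0.646 to 1.18), included 1. The let-7 seed match CUACCUC was in 13 AVJ16-only windows (0.427%), 0.568% of shared and 0.408% of tiled windows. GGAC and ACAC can share bases, as in the SLC22A5 sequence above, and were then both counted.

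AVJ16-only peaks lay along the whole 3’UTR. Their median position was 44.4% of the way from stop codon to 3’ end (42.8% to 46.1%), against 41.4% (40.7% to 42.3%) for shared and 44.4% for DMSO-only peaks. In nucleotides, the medians were 1117.5 nt after the stop codon for AVJ16-only and 929 nt for shared peaks. Within 200 nt of the stop codon lay 9.07% of AVJ16-only (8.10% to 10.1%), 10.7% of shared and 10.7% of DMSO-only peaks. Within 200 nt of the 3’ end lay 6.01% (5.22% to 6.91%), 6.77% and 9.005%. The difference in median position from shared peaks was 2.99 percentage points (1.14 to 4.83). Its interval included 0 with CDS peaks kept, at 0.863 points (−1.04 to 2.76), and when members and shared peaks needed a −log10 p of 10, at 3.18 points (−0.61 to 6.97). The last of the shares above sets DMSO-only peaks apart from AVJ16-only peaks at the 3’ end.

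**Figure D3:**
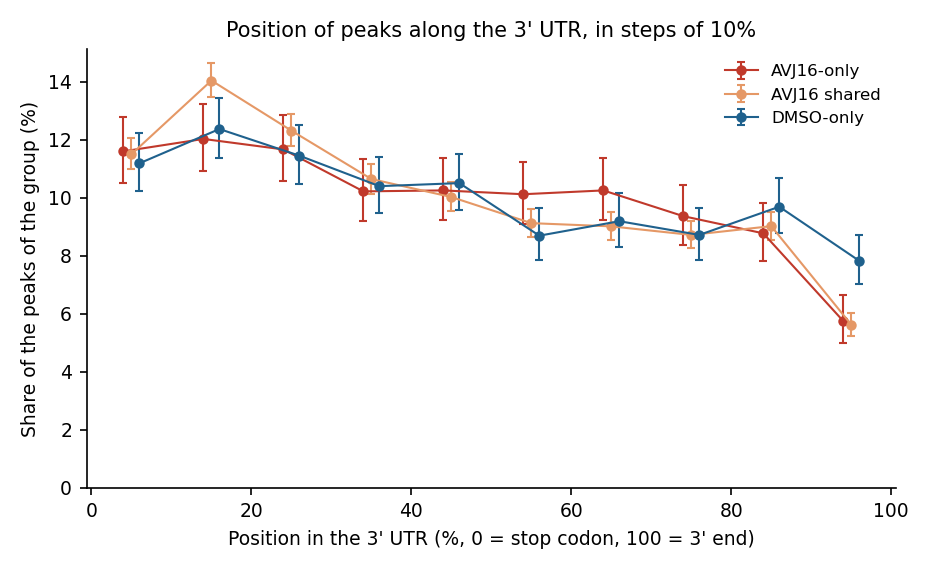
Share of the peaks of each group (vertical axis, %) in steps of 10% of the 3’UTR (horizontal axis, from the stop codon at 0 to the 3’ end at 100), for AVJ16-only (red), shared AVJ16 (orange) and DMSO-only (blue) peaks with 95% Wilson intervals. The curves run close together, with shared peaks higher in the step after the first and DMSO-only peaks higher in the last.

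The later position came with longer 3’UTRs. The median 3’UTR length was 3226 nt (3124 to 3302) for AVJ16-only and 2771 nt (2726 to 2813) for shared peaks. For DMSO-only peaks it was 3022 nt (2947 to 3093), also above shared peaks. The AVJ16-only share was 15.0% in 3’UTRs under 1000 nt, 17.8% from 2000 to 4000 nt and 23.8% at 8000 nt and over. The DMSO-only share was 24.1%, 22.1% and 30.2% in the same ranges, so a high share in the longest 3’UTRs was not particular to AVJ16. In the 1216 3’UTRs that hold both AVJ16-only and shared peaks, the direction of the position difference was opposite. AVJ16-only minus shared peaks had a median of −3.19 percentage points (−5.47 to −1.15). AVJ16-only peaks were nearer the stop codon in 657 genes and farther in 559. A position toward the 3’ end was therefore not found within 3’UTRs.

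Most AVJ16-only peaks were in a 3’UTR that also held DMSO peaks at other places. A DMSO peak lay in the same 3’UTR for 2446 of them, or 80.4% (78.9% to 81.7%). For 552 it lay within 100 nt, for a further 586 within 200 nt, for 646 within 500 nt and for 350 within 1000 nt, and for 312 it was farther away. Where there was one, the median distance was 225.5 nt (211 to 239). Another 107 members (3.52%) had a DMSO peak only elsewhere in the gene, and 491 (16.1%) lay in genes with no DMSO peak.

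**Figure D4:**
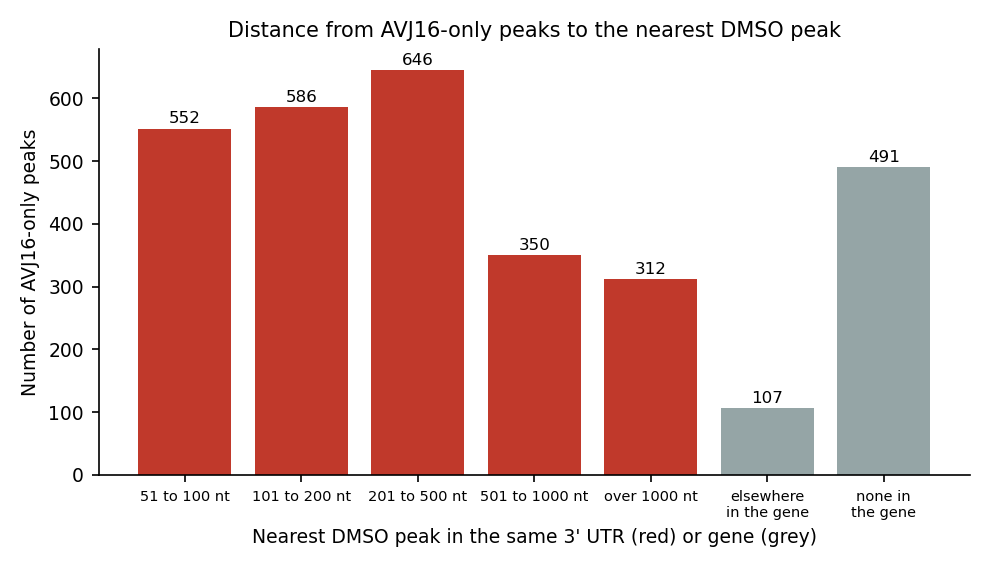
Number of AVJ16-only peaks (vertical axis) by distance to the nearest DMSO peak in the same 3’UTR (red bars), or with a DMSO peak elsewhere in the gene or none (grey bars). The bars span unequal ranges of distance, so their heights are not densities. The bar that ends at 500 nt is the highest, with 646 peaks, and 491 peaks lie in genes with no DMSO peak.

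Neighbouring AVJ16 peaks were counted in the same way. Another AVJ16 peak lay in the same 3’UTR for 84.8% of AVJ16-only and 94.6% of shared peaks. Only 436 members (14.3%) touched another AVJ16 peak, whereas 52.7% of shared peaks did, and 75 were part of a run of touching peaks that includes a shared one. The median number of DMSO peaks in the 3’UTR was 3 for AVJ16-only and 7 for shared peaks. A shared peak must have a DMSO peak near it and a member must not, and an AVJ16 peak that touches a shared one is usually shared too, so the rule itself moves all of these counts. Where a 3’UTR held a single AVJ16 peak, 38.9% of the peaks were AVJ16-only, and with 11 or more the share was 11.007%.

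The 3044 peaks fell in 1855 genes, 48.5% of the 3821 genes with an AVJ16 3’UTR peak. A single AVJ16-only peak was present in 1181 genes (63.7%), 2 in 406, 3 in 148, 4 or 5 in 89 and 6 or more in 31. Shared peaks were present too in 1216 of the 1855 genes. DMSO-only peaks were present in 812 of them (43.8%) and in 742 of the 1966 genes without a member (37.7%). These shares are not comparable. Of the 1855 genes, 442 had no DMSO 3’UTR peak and so could hold no DMSO-only one. By the rule, each AVJ16 3’UTR peak of a gene without a member has a DMSO peak near it. Genes with a member had a median 3’UTR length of 2834 nt, against 1802.5 nt for those without, and a median of 3 AVJ16 3’UTR peaks against 2. The share of genes with a member rose from 38.9% with 1 AVJ16 3’UTR peak to 70.2% with 11 or more.

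The 6 genes with the most members showed several layouts. TRAM2 (ENSG00000065308), a membrane protein of the translocon in the endoplasmic reticulum, held 14, with 27 AVJ16 and 8 DMSO peaks in its 3’UTR of 5789 nt on the minus strand of chromosome 6. Their log2 fold enrichments ran from 3.11 to 4.26 with a median of 3.40, and those of the DMSO peaks from 3.06 to 5.43. A run of 6 lay between 3309 and 3701 nt after the stop codon with enrichments of 3.38, 3.51, 3.37, 3.42, 3.44 and 3.37, where the DMSO list held none. GALNT10, which starts mucin-type O-glycosylation, held 10 members among 15 AVJ16 peaks against 3 DMSO peaks in 4012 nt. Its members ran from 3.03 to 3.75, while its DMSO peaks had values of 3.46, 3.79 and 4.46. LCOR, a corepressor of nuclear receptors, held 10 members, of which 6 lay between 6101 and 6733 nt in a 3’UTR of 10822 nt. One of these, at chr10:96991314-96991385 on the plus strand, reached 4.85 and the other 9 of the gene lay between 3.02 and 3.54.

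EMP1, an epithelial membrane protein, held 8 members among 22 AVJ16 peaks, against 8 DMSO peaks, in 5250 nt. A touching pair near the 3’ end had log2 fold enrichments of 4.57 and 5.16 and lay 2543 and 2569 nt from the nearest DMSO peak, the latter at chr12:13219276-13219326 on the plus strand. GPRC5A, an orphan receptor induced by retinoic acid, held 9 members among 45 AVJ16 peaks, against 17 DMSO peaks. Its members ran from 3.00 to 4.43 at −log10 p values of 18.8 to 46.8, and 3 lay between 3325 and 3551 nt, apart from both dense ends of its 3’UTR. ACVR2B, an activin receptor, held 9 members spread from 1730 to 8590 nt of a 3’UTR of 9810 nt, with enrichments of 3.04 to 3.75. In TRAM2, GALNT10, EMP1 and GPRC5A the DMSO list held no DMSO-only peak, and in ACVR2B and LCOR it held 2 and 4.

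**Figure D5:**
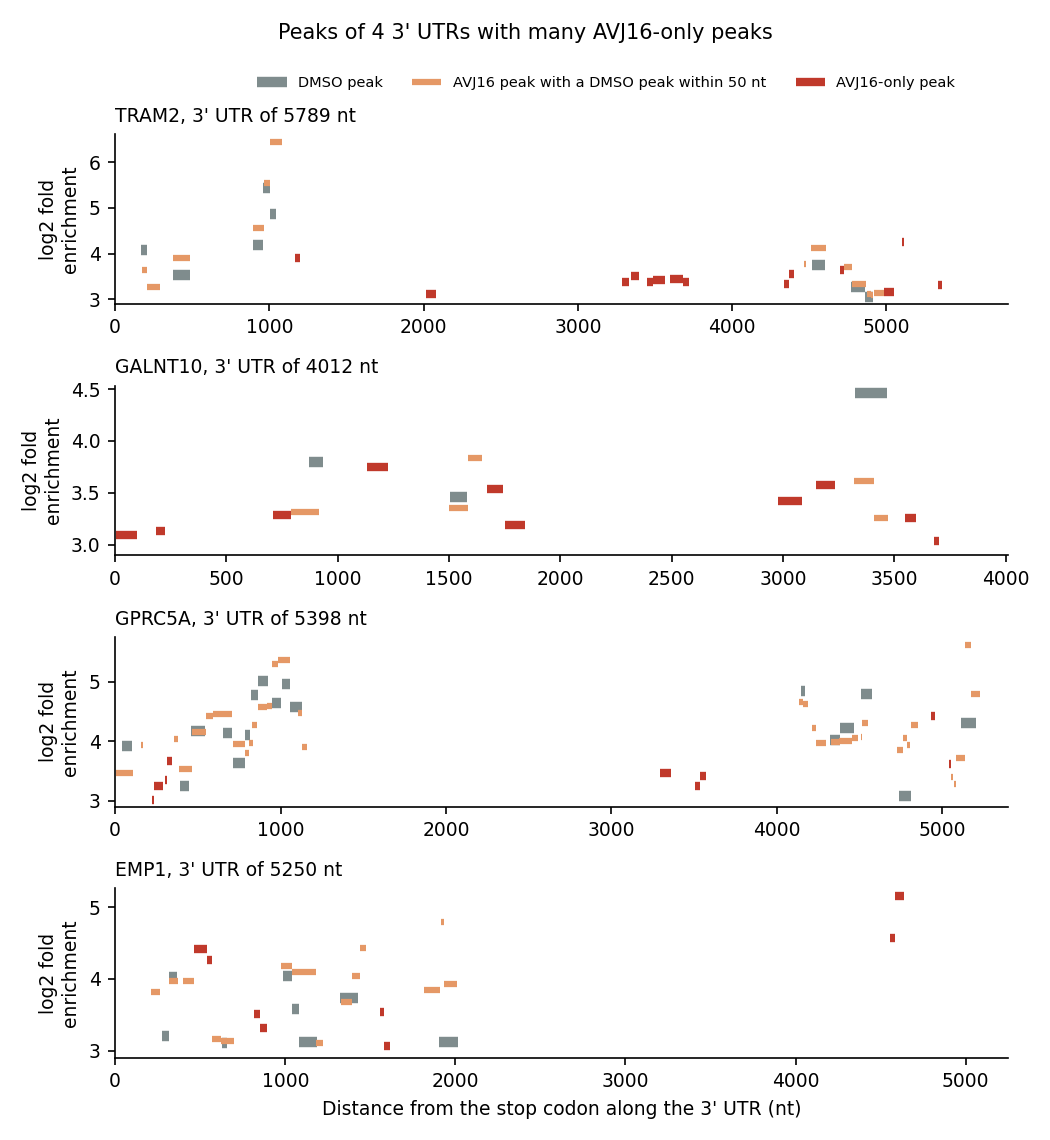
Peaks along the 3’UTRs of TRAM2, GALNT10, GPRC5A and EMP1, drawn to scale by distance from the stop codon (horizontal axis, nt) and log2 fold enrichment (vertical axis, which starts just under the listing threshold of 3): DMSO peaks grey, shared AVJ16 peaks orange, AVJ16-only peaks red. In TRAM2 a run of 6 red bars lies between 3309 and 3701 nt where no grey bar is drawn, and in EMP1 a red pair at 4.57 and 5.16 stands alone near the 3’ end.

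Shared peaks of the same 3’UTRs were compared between the lists. At overlapping peaks of both lists, the log2 fold enrichment with AVJ16 minus that with DMSO had a median of −0.10 (−0.12 to −0.09) over 6352 peaks in 3’UTRs with no member, −0.08 with 1 member, −0.04 with 2, and 0.01 (−0.02 to 0.04) over 1643 peaks with 3 or more. The SD across peaks was 0.56 to 0.58, far above these medians, and longer 3’UTRs and more peaks go with more members. In steps of 3’UTR length the median was −0.11 under 1000 nt, then −0.08, −0.07 and −0.04, and −0.12 at 8000 nt and over. In steps of GC content the median was −0.12 under 30%, then −0.09, −0.06 and −0.03, and −0.07 at 60% and over. A part of length, GC content or peak number in the shift was not tested. Single genes went both ways. In TRAM2, 9 of 11 overlapping shared peaks were higher with AVJ16 (median 0.11), and in ACVR2B all 5 were lower (median −0.21). In GALNT10 all 4 were lower, with a median of −0.67. A DMSO peak that overlaps several AVJ16 peaks was compared with each of them. The 11 values of TRAM2 come from at most 8 DMSO peaks and the 4 of GALNT10 from at most 3, so they are not separate sites.

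The rule shapes the count of genes with no DMSO peak, since it makes their AVJ16 3’UTR peaks AVJ16-only. Among the 3821 genes with an AVJ16 3’UTR peak, 1855 held a member, and 368 of the 1855 had no DMSO peak. Of these 368, 90 had more than 1 AVJ16-only peak. CYP2U1 had 1, with 5.38, at chr4:107951709-107951874 on the plus strand. HBEGF, a ligand of the EGF receptor, had 3, at 4.96, 4.53 and 3.64, the first at chr5:140333066-140333218 on the minus strand. SLC22A5, the carnitine transporter, had 4.93 and 3.87, the first at chr5:132394410-132394525 on the plus strand. These peaks had −log10 p values of 3.35 to 13.6, the lowest near the listing limit of 3 and all far below those of the most significant peaks. HSPB8, a small heat shock protein, had 3, at 4.91, 4.30 and 4.25. SELENOW, a selenoprotein, had 1 with 4.77, and TNFAIP1, an adaptor of cullin ligases, had 3, at 4.70, 3.07 and 3.07. A low level of such an mRNA or of its coverage in the DMSO libraries cannot be told apart from weaker binding in these lists.

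A second small set had extreme −log10 p and modest enrichment. Chosen after their values were seen, the 29 members with a −log10 p of at least 50, in 20 genes, had log2 fold enrichments of 3.02 to 3.72, and 7 of them were at the upper limit of 400. CALR, the chaperone calreticulin, had 4 touching members at chr19:12944311-12944455 on the plus strand, with log2 fold enrichments of 3.33, 3.40, 3.25 and 3.17, −log10 p values of 47.8, 46.7, 400 and 400, and no DMSO peak in the gene. SCD, the stearoyl-CoA desaturase, had 3 touching members at 400, with 3.33, 3.34 and 3.09, between 41 DMSO peaks of its 3’UTR. HSP90AA1 and SLC38A2 had 1 each at that limit, with 3.09 and 3.04. None of the 29 reached a log2 fold enrichment of 4.

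Across 14 gene lists, members were present in most kinds of gene bound in the 3’UTR. The lists were chosen with earlier results known, and the value to read them against is 48.5% of genes, or 18.3% of peaks. Of the 14 genes of the list of known IGF2BP1 targets with an AVJ16 3’UTR peak, 7 held a member, but these were 12 of 149 peaks (8.05%). CD44, an adhesion receptor, held 5 members up to 4.40 and MKI67, the proliferation marker Ki-67, held 1 at 3.69. In the WNT pathway, 11 of 26 genes and 21 of 114 peaks (18.4%) were members, led by the receptors LGR4 at 4.38 and FZD5 at 4.24. Among cell cycle genes it was 6 of 22 (27.3%, 13.2% to 48.2%), with CCND2 (cyclin D2) at 3.88 and the inhibitor CDKN1A (p21) at 3.65. Receptor, RAS and PI3K signalling had 13 of 24, with the kinase RPS6KB1 at 4.44 and the insulin receptor INSR at 4.24. RPS6KB1 also held 3 DMSO-only peaks, and no shared one.

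In TGF-β and Hippo signalling 14 of 22 genes held a member, with the transcription factor SMAD4 at 4.65 and the kinase LATS1 at 4.60. SMAD4 had this AVJ16 peak, at chr18:51080324-51080364 on the plus strand, and 1 DMSO-only peak 1697 nt away. Transporters of amino acids and glucose had 11 of 14 genes (78.6%, 52.4% to 92.4%) but 31 of 205 peaks (15.1%). SLC7A1, the cationic amino acid transporter, held 7 members up to 5.23 among 54 AVJ16 peaks, and SLC7A6 held 1 at 4.05. Ubiquitin ligases and proteases had 2 of 16 (12.5%, 3.498% to 36.0%), RNF11 at 3.38 and CUL4B at 3.17. The intervals of the cell cycle and ubiquitin lists lay below the 48.5% over all genes. That of the transporters lay above it, and each list has few genes. The 48.5% does not allow for peaks per gene. Median AVJ16 3’UTR peaks per gene were 2 for cell cycle, 3 for ubiquitin and 9 for transporter genes. Over all genes, 43.6% held a member with 2 such peaks, 50.2% with 3 to 5 and 59.5% with 6 to 10. By peaks, members were 11 of 94 (11.7%) in the cell cycle list and 2 of 57 (3.51%) in the ubiquitin list.

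In the other lists, the counting interval of the share of genes included the value over all genes. Apoptosis and p53 had 4 of 11, with APAF1 at 3.98. The microRNA pathway had 3 of 6, with TNRC6B at 3.94 and AGO2 at 3.68, and m6A factors had 5 of 7, with the demethylase ALKBH5 at 3.91 and the writer subunit ZC3H13 at 3.89. Chromatin regulators had 10 of 19, with KMT2A, which holds 6 members up to 4.47, and BRD3 at 3.48. Sterol and lipid synthesis had 8 of 16, with SC5D at 3.502 and ELOVL1 at 3.44. Matrix and adhesion had 12 of 23, with the integrin ITGA4 at 4.28, and nuclear transport had 7 of 17, with KPNA4 at 3.88 and NUP50 at 3.83. KPNA4 and APAF1 had no DMSO peak in the 3’UTR.

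The rule leaves little room for members in 3’UTRs dense with DMSO peaks, so the shares in such 3’UTRs are given as values only. Among the genes with a member, SCD, CBX5, NUCKS1 and IGF1R had among the most DMSO peaks in the 3’UTR, 41, 52, 44 and 41, and SCD held 3 members of 56 AVJ16 peaks. CBX5, the heterochromatin protein HP1α, had 2 members of 53 AVJ16 peaks, at 3.04 and 3.01. NUCKS1, a nuclear chromatin protein, had 2 of 54, one at 3.84 with a −log10 p of 36.5. IGF1R, the IGF1 receptor, had 2 of 40, one at 3.68.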

How the data were processed

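IGF2BP1 eCLIP was compared between H1299 cells with DMSO and with AVJ16, as labelled. The authors used cutadapt for trimming, left out reads of repeats, aligned the rest with STAR, collapsed PCR duplicates and called peaks with CLIPper, each tested for IP against SMInput reads. The deposited log2 fold enrichment and the deposited −log10 p, which stops at 400, are the authors' values for both replicates together, and the lists were made separately, so no depth, error between replicates or test was available. The labels name IDR, which ranks peaks by how well replicates reproduce them, and its settings are not given in the sources used here. The Methods name an older Gencode release, but all peaks fit hg38, the labelled build. The lowest value of the log2 enrichment was 3.00 in both lists, which is 8-fold.

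A peak was a 3’UTR peak if it overlapped a GENCODE release 44 3’UTR on its strand and no CDS. Position was counted along the spliced 3’UTR of the canonical transcript where possible, and GC content and motifs in 75 nt centred on the peak. Shares and medians have 95% intervals. The scripts ran on Python 3.11.15. Sequence was read with pysam 0.24.0, tables were handled with pandas 2.3.3 and numpy 2.4.6, intervals came from scipy 1.17.1, and plots from matplotlib 3.10.9. Region assignment, distances and motif counts were tested on simulated data. Alternatives were other distances, stricter thresholds, other transcripts, CDS peaks kept, touching peaks joined, and other windows and backgrounds.

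Genes named are those of the 12 most enriched members, the 6 with most members, the 6 most enriched without a DMSO peak, up to 2 per gene list, the 4 with most DMSO peaks and the extremes of GC content. Some items under this rule are not reported here. CALR, HSP90AA1 and SLC38A2 were chosen after their values were seen. Members and lists were chosen with earlier results of these data known. RNA-seq and proteomics were not analysed here.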

Additional observations from a re-analysis of the deposited data

How the results depend on the processing

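Of 96 alternatives, 57 left a result within its counting interval or, for counts, within 1.5 times, and 39 moved it. No direction turned where the interval of the reported value left out equality. The ratio of CUACCUC to tiled windows, 1.05 (0.604 to 1.81), was 0.970 against tiled windows of all genes. With only overlap counted as a neighbour (0 nt), 24.8% of AVJ16 3’UTR peaks were AVJ16-only, 11.9% of them in genes with no DMSO peak and 85.4% with a DMSO peak in the same 3’UTR. At 100 nt these shares were 15.0%, 19.8% and 76.1%, and at 200 nt 11.4%, 26.0% and 68.6%, with 1885 members. A log2 fold enrichment of at least 4 left 389 members (7.65%) in 323 genes, with 14.1% in genes with no DMSO peak, 83.0% with a DMSO peak in the same 3’UTR, a median position of 48.8%, 5.73 percentage points beyond shared peaks, and a GC content 4 points above them. A −log10 p of at least 10 left 951 members (8.85%) in 606 genes, with 9.15% in genes with no DMSO peak, 87.0% with a DMSO peak in the same 3’UTR a GC difference of 2.67 points and a position difference of 3.18 points (−0.61 to 6.97). With CDS peaks kept, the AVJ16-only share was 19.9%, the median position 41.5%, the position difference 0.863 points (−1.04 to 2.76, which includes 0), the GC difference 2.67 points and the share with a DMSO peak in the same 3’UTR 81.9%. With touching peaks joined, the AVJ16-only share was 23.3%. GC content had a median of 44.4% over the peak itself, 2.86 points above shared peaks, and of 42% over 150 nt. Against tiled windows of all genes, the ratios were 1.06 for GGAC (0.982 to 1.15) and 0.790 for UUUUU. In windows of 150 nt they were 1.18 for ACAC, 0.860 for AUUUA, 0.739 for AAUAAA and 0.881 for UUUUU. The ratio of UUUCCGAA, from 1 window, was 1.32 (0.181 to 9.61), 1.27 from 2 windows of 150 nt, and 1.17 against all genes. GC content stayed higher in AVJ16-only peaks under every alternative run. No paired analysis was possible because both replicates of a treatment share 1 value in each list, and for the same reason no replicate could be left out. Sites under a listing threshold are missing, so a member is not shown to be unbound with DMSO.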
